A study of Mus musculus with 8 samples.

Results

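Matrix metalloproteinases (MMPs), the ADAMTS proteases and their inhibitors, the TIMPs, were examined as 1 set of matrix-remodelling genes. Members were all genes whose symbol in the platform annotation is Mmp, Adamts, Adamtsl or Timp1 to Timp4 with the family number, which gave 49 of the 19939 genes on the array. They comprised 22 MMPs, 18 ADAMTS proteases, 5 ADAMTS-like proteins and 4 TIMPs. They were taken by symbol, but the families were chosen with earlier results of these data known. The RNA came from 8 samples of mouse embryonic fibroblasts of FVB/N background, all of them Daxx knockout. Into 4 of these Daxx had been reintroduced, in samples titled DaxxA (2 arrays) and DaxxB (2 arrays), and 4, titled Daxx-/-, had received vector (4 arrays). Cells were grown in serum-containing medium and harvested the day after seeding. What A and B denote, whether the lines are clones and whether samples of a group were separate cultures is not given in the labels, so the spread between arrays may be technical. The study asked which genes act downstream of Daxx, a histone chaperone and transcriptional regulator.

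MMPs and ADAMTS proteases are zinc-dependent endopeptidases of the extracellular space. MMPs cleave collagens, gelatins and many other matrix and cell surface proteins, while ADAMTS proteases cut large proteoglycans such as aggrecan and versican or trim procollagens. ADAMTS-like proteins lack a protease domain and bind matrix, and TIMPs block the active site of MMPs and of some ADAMTS proteases. Embryonic fibroblasts are a known source of several of these proteins.

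Values are log2 signals, on which a step of 1 is a doubling, and they are those of a probe set, so that levels of different genes are not compared. Changes are Daxx minus vector over 4 arrays against 4, with a standard error (SE), and a gene was called when limma's adjusted p over all genes lay below 0.05. The Daxx probe set itself read 7.35 and 7.36 in DaxxA, 7.46 and 7.23 in DaxxB, and 7.34, 6.85, 7.27 and 7.16 in the vector arrays. The ranges overlap (difference 0.20, 95% interval -0.05 to 0.44), so the directions given here rest on the labels alone. The sources used here do not say whether its probes lie in the deleted part of the gene or in the reintroduced sequence, so these values may check neither. Vector replicate 2 stood apart, with an interquartile range of 2.79 against 3.31 to 3.39 in the other 7 arrays, and with an olfactory receptor median of 5.21 against 4.65 to 4.70. Of the 31 members whose mean signal lay above 6.07, the 95th percentile of the olfactory receptor genes, that array gave the lowest vector value in 22. Of the 18 members not above it, the same array gave the highest vector value in 15. Results are therefore given with all 8 arrays and, where they differ, with 7. Of 14 fibroblast markers 12 lay above the olfactory percentile, all but Lum and Fap. Of 12 macrophage and neutrophil markers 2 did, Cd68 and Cd14, with Ptprc, Adgre1, Csf1r, Itgam and Mpo among those that did not. The mean of the 12 per array was 5.59 to 5.69 in the Daxx arrays and 5.61 to 5.84 in the vector arrays. Of 7 endothelial markers 2 lay above it, Tie1 and Vwf, with Pecam1, Cdh5 and Kdr among those that did not. Of 8 epithelial markers 4 lay above it, Krt8, Krt18, Cldn3 and Cldn4, with Epcam and Cdh1 among those that did not. Of 11 measured cartilage and bone markers 4 lay above it, Sox9, Col2a1, Col9a1 and Alpl. The fibroblast markers had 1 member higher, Col1a2, and 5 lower, Prrx1, Dcn, Twist2, Pdgfrb and Pdgfra, beside 1.8% and 2.73% of all genes. On 7 arrays 1 was higher and 6 were lower, beside 5.26% and 7.57% of all genes. The mean of the 14 fibroblast markers was 8.79 to 8.91 in the Daxx arrays, against 9.17 to 9.26 in the vector arrays. The part of that difference in the results below was not tested, and fewer cells of a type cannot be told apart from less RNA per cell.

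Promoter sequence is shown for the members called in the comparison and present in the RefSeq promoter table of GRCm38.p6, as the 150 bases before the annotated start, 5′ to 3′ on the strand of the gene. Capitals mark matches, on either strand, to the AP-1 motif TGANTCA, the GC box GGGCGG and the TATA box TATAAA, and no match overlapped another. The genes fell in the Daxx arrays except Timp1, which rose.
Adamts1 (chr16:85803114-85803263, minus strand): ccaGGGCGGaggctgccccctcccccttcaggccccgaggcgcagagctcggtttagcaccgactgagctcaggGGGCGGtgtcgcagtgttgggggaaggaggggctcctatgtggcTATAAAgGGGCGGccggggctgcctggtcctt
Adamts3 (chr5:89883335-89883484, minus strand): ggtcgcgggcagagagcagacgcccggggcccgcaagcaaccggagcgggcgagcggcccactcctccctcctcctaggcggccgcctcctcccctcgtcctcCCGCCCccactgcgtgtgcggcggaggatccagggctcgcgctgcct
Timp3 (chr10:86300262-86300411, plus strand): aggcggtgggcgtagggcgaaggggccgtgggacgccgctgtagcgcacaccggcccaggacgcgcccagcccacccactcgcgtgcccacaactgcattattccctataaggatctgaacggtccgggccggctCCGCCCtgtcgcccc
Timp2 (chr11:118355412-118355561, minus strand): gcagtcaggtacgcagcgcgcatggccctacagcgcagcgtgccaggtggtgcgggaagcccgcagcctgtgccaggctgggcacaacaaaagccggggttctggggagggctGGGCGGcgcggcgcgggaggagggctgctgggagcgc
Timp1 (chrX:20870016-20870165, plus strand): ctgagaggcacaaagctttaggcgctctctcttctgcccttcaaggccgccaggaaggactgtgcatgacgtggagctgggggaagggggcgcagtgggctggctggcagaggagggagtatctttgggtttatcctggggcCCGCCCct
Mmp3 (chr9:7445672-7445821, plus strand): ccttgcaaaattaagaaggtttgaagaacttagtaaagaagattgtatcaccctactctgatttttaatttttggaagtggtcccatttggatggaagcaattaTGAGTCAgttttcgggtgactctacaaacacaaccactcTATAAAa

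The GC box stood in 5 of these 6 windows and was absent from that of Mmp3, which held an AP-1 match at position -46 and a TATA match at -7 from the annotated start. Adamts1 held 3 GC boxes and a TATA match at -32. In the 250 bases before the start, 48.6% of the 37 promoters listed for 34 members held a GC box, against 32.7% of all 32851 promoters. For the AP-1 motif the shares were 21.6% and 6.75%, and for the TATA box 27.0% and 12.4%. These matches describe the letters of the window and were not tested as binding sites.

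Across the families 10 of 49 members (20.4%) were called between the Daxx and the vector arrays, beside 4.52% of all genes. Of these, 6 fell (2.73% of all genes did) and 4 rose (1.8% of all genes did). Adamts5, Adamts1, Adamts3, Timp3, Timp2 and Mmp3 fell, and Timp1, Mmp9, Adamts6 and Adamts4 rose. The largest changes were in the proteoglycan-cleaving proteases Adamts5 and Adamts1, at 2.39-fold and 2.30-fold lower, and no other member reached a doubling in the probe set used for the gene. The 4 Daxx values lay wholly outside the 4 vector values for 14 of 49 members (28.6%), 7 higher and 7 lower, beside 14.8% of all genes (8.02% higher and 6.79% lower), and all 10 called members were among them. The median change was -0.09 over the 49 members and -0.03 over all genes, and 32 members had a value below 0 and 17 above. Leaving out DaxxA replicate 1, either DaxxB replicate, vector replicate 1 or vector replicate 3 left 6 members called, without Adamts4, Adamts6, Mmp3 and Mmp9. In those fits 446 to 504 of all 19939 genes were called. Without vector replicate 2 the medians were -0.01 and 0.02. The same 10 members were called then with 9 more, 13 lower and 6 higher in all (38.8%, beside 12.8% of all genes, 7.57% lower and 5.26% higher).

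**Figure D1:**
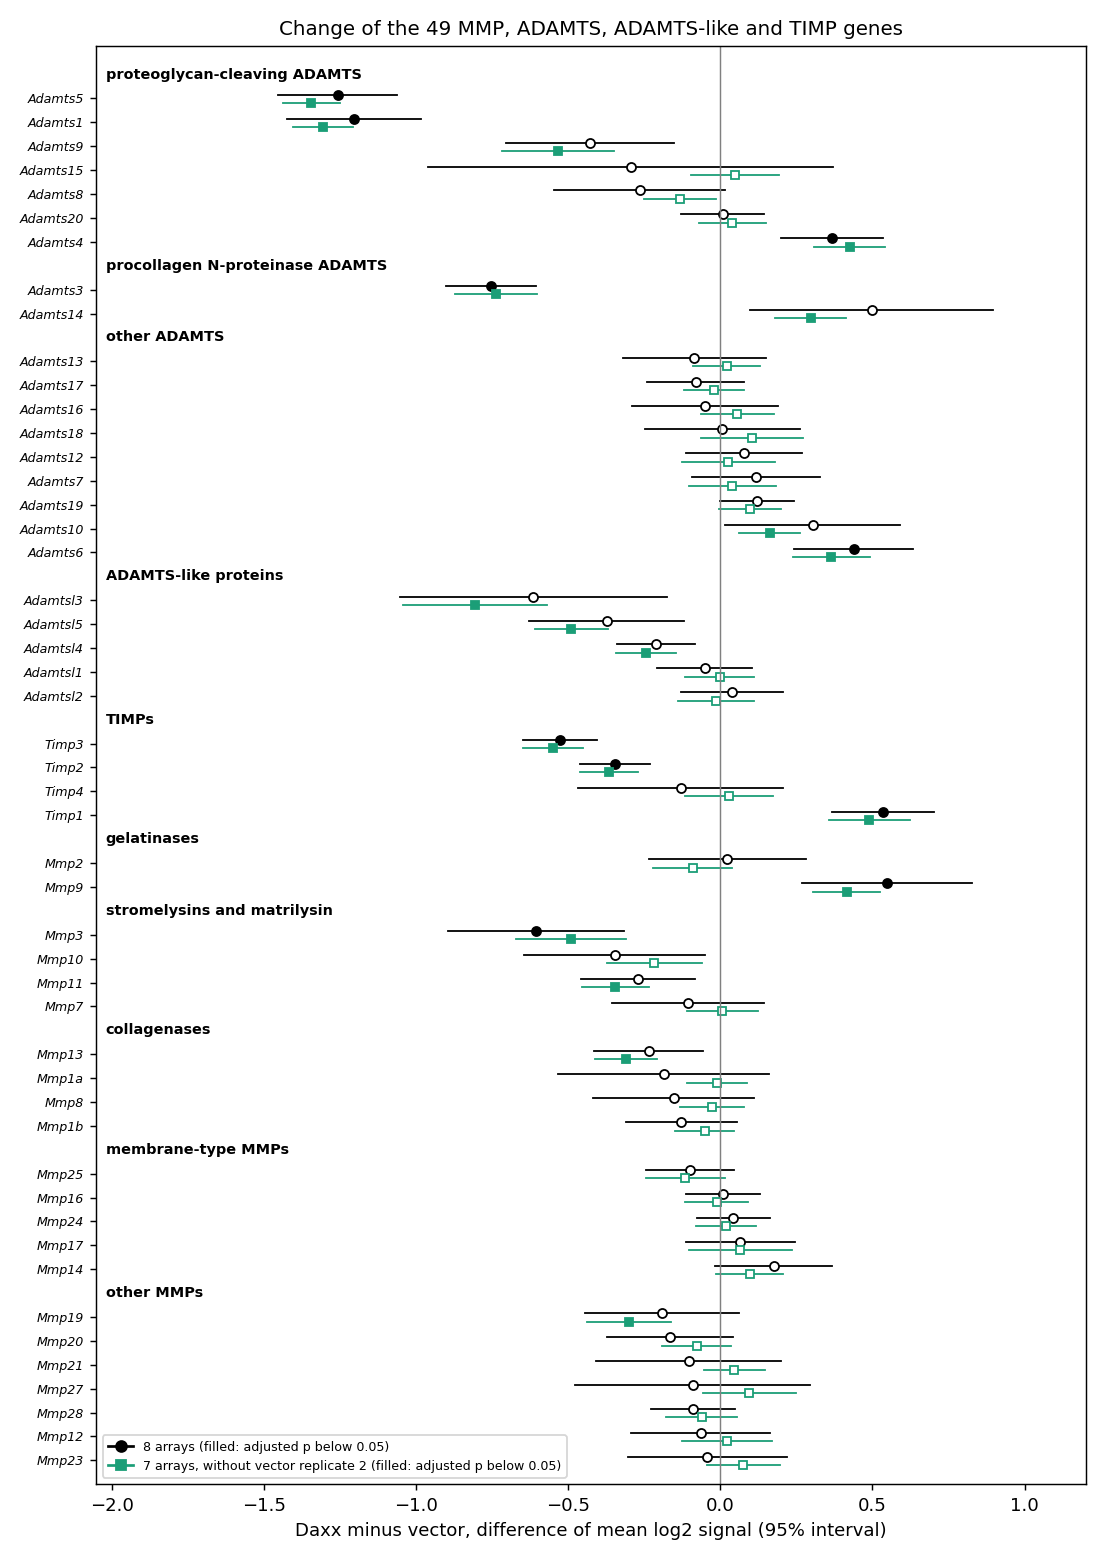
Difference of mean log2 signal, Daxx minus vector, with 95% intervals (x axis) for the 49 members (y axis) in groups by role, on 8 arrays (circles) and on 7 arrays without vector replicate 2 (squares), filled where the adjusted p was below 0.05. Adamts5 (-1.26) and Adamts1 (-1.20) lie farthest to the left and Mmp9 (0.55) and Timp1 (0.53) farthest to the right on 8 arrays, and the squares have narrower intervals than the circles for most members.

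Among the proteases that cleave large proteoglycans, 2 of 7 fell, 1 rose and 4 did not pass. Adamts5, the main aggrecan-cleaving protease of mouse cartilage, had signals of 8.25 and 8.21 in DaxxA and 8.22 and 8.16 in DaxxB, against 9.52, 9.21, 9.56 and 9.58 in the vector arrays. All 4 Daxx arrays lay within 0.1 of each other and about 1 unit or more below the lowest vector array, and the change was -1.26 (SE 0.086, adjusted p = 8.0e-05). Adamts1, which cuts aggrecan and versican, read 8.39 and 8.34 in DaxxA and 8.33 and 8.27 in DaxxB, against 9.66, 9.23, 9.64 and 9.60 in the vector arrays. Here too the groups were far apart, with a change of -1.20 (SE 0.097, adjusted p = 0.000227). In both genes vector replicate 2 was the lowest of the vector arrays, and without it the changes were -1.34 and -1.31. Adamts1 and Adamts5 are next to each other on chromosome 16 in the GRCm38.p6 gene order, with no other protein-coding gene between their starts.

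Adamts4, the other classical aggrecanase, went the opposite way. It read 8.63 and 8.45 in DaxxA and 8.61 and 8.52 in DaxxB, against 8.13, 8.36, 8.16 and 8.09 in the vector arrays. The Daxx arrays were all higher, by 0.37 on average (SE 0.074, 1.29-fold, adjusted p = 0.0281), but the gap to vector replicate 2 was small. Leaving out single arrays kept that call in 2 of 8 fits, with adjusted p-values up to 0.0983. Adamts9, a versican-cleaving protease, did not pass (-0.43, SE 0.12, adjusted p = 0.0985). Its arrays overlapped only through vector replicate 2, at 8.14, within the Daxx range of 7.81 to 8.19, while the other vector arrays lay between 8.47 and 8.61. Without that array Adamts9 was called lower (-0.53, adjusted p = 0.00192). Adamts8, Adamts15 and Adamts20 had changes of -0.27, -0.30 and 0.01 on 8 arrays and of -0.13, 0.05 and 0.04 on 7. They did not pass on either, and the mean signals of Adamts15 and Adamts20 were not above the olfactory percentile.

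**Figure D2:**
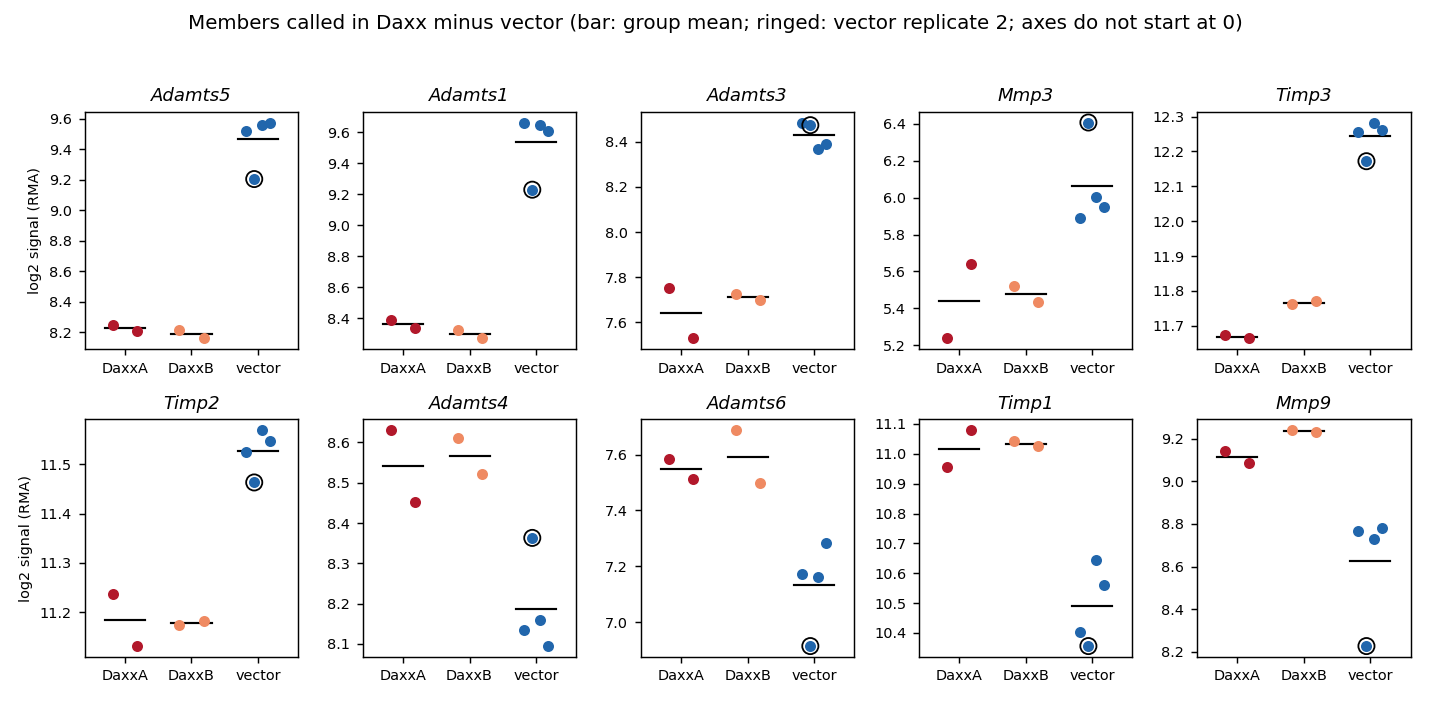
Log2 signal of each array (points) and the group mean (bars) for the 10 members called in Daxx minus vector, in DaxxA, DaxxB and vector arrays, with vector replicate 2 ringed and axes that do not start at 0. No Daxx array overlaps a vector array in any panel, and the ringed array is the extreme vector value in 9 of the 10 panels, all but Adamts3.

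The procollagen N-proteinases had 1 of 2 members lower. Adamts3, which removes the amino propeptide of procollagen and in mice is needed for activation of the lymphatic growth factor Vegfc, read 7.75 and 7.53 in DaxxA and 7.73 and 7.70 in DaxxB, against 8.49, 8.47, 8.37 and 8.39 in the vector arrays. The change was -0.75 (SE 0.065, 1.68-fold, adjusted p = 0.00033), and vector replicate 2 did not stand out. Adamts3 is covered by 16 probe sets, which share the samples and are no replicates. In the fit of every probe set all 16 had a value below 0, from -1.47 to -0.39 with a median of -0.89, 13 were called lower and 3 did not pass. The probe set with the highest mean, used for the gene, was thus among the smaller changes. Adamts9 has 6 probe sets, all below 0 (-0.70 to -0.16), of which 4 were called lower in that fit although the one used for the gene was not. The 5 probe sets of Adamts17 (-0.13 to -0.05) and the 2 of Adamtsl1 (-0.07 and -0.05) were not called. Adamts14, a second procollagen N-proteinase, read 8.53 and 8.43 in DaxxA and 8.55 and 8.42 in DaxxB, against 8.22, 7.38, 8.23 and 8.11 in the vector arrays. All its Daxx values were higher, but with vector replicate 2 at 7.38 it did not pass (0.50, SE 0.18, adjusted p = 0.193). Without that array the change was smaller and was called (0.30, SE 0.053, adjusted p = 0.00408).

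**Figure D3:**
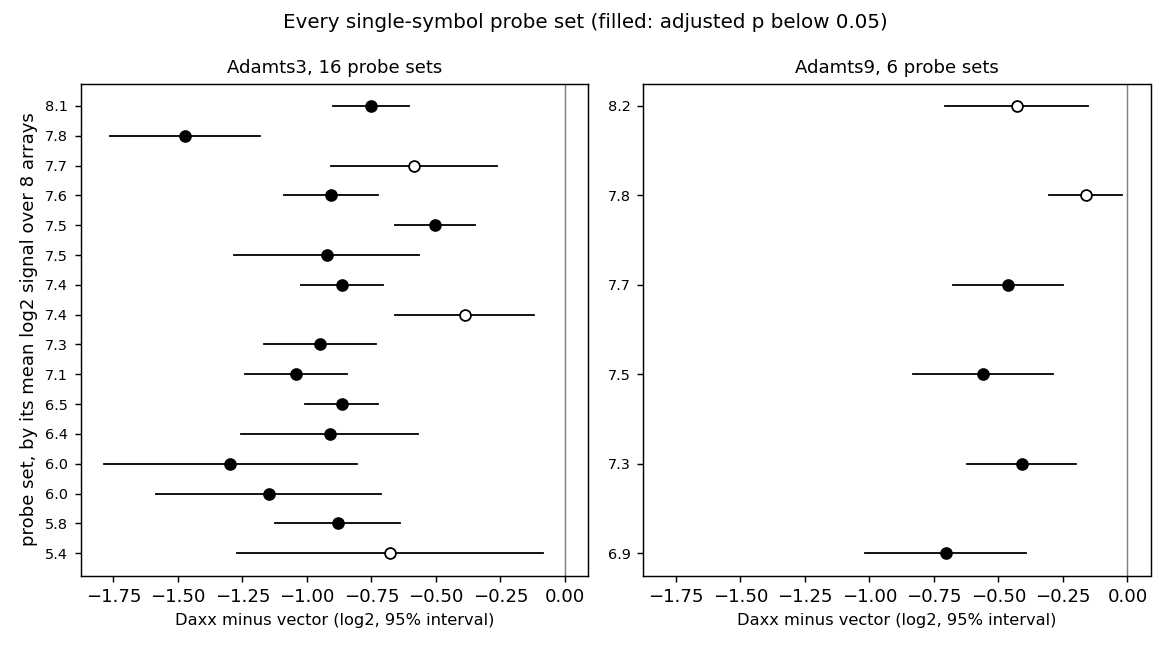
Daxx minus vector on the log2 scale with 95% intervals (x axis) for every probe set of Adamts3 and Adamts9, ordered by mean signal (y axis), filled where the adjusted p was below 0.05. All 16 Adamts3 probe sets and all 6 Adamts9 probe sets lie below 0, with 13 and 4 of them filled.

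Of the other 9 ADAMTS proteases 1 rose and 8 did not pass. Adamts6, whose loss in mice disturbs heart development, read 7.58 and 7.51 in DaxxA and 7.69 and 7.50 in DaxxB, against 7.17, 6.91, 7.16 and 7.28 in the vector arrays. The change was 0.44 (SE 0.086, 1.35-fold, adjusted p = 0.0241), and the call was kept in 2 of 8 fits that left out 1 array. Adamts10, its closest relative and a partner of fibrillin microfibrils, had 4 Daxx values (8.38 to 8.45) above the vector values (7.70 to 8.32) without passing (0.30, adjusted p = 0.292), and was called on 7 arrays (0.16, adjusted p = 0.0396). The remaining 7 had changes between -0.09 and 0.12, and 4 of the 9 had a mean signal not above the olfactory percentile.

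Of the 5 ADAMTS-like proteins, 0 were called by limma on 8 arrays, where 3 had an unadjusted p below 0.05, and the same 3 were lower on 7. For Daxx minus vector the share of all genes at that unadjusted threshold was not taken, here or in the paragraphs below. Adamtsl3 read 7.54 and 7.52 in DaxxA and 7.14 and 7.09 in DaxxB, against 8.12, 7.36, 8.09 and 8.17 in the vector arrays. Vector replicate 2 lay within the Daxx range and the other vector arrays between 8.09 and 8.17, so that the change of -0.61 (SE 0.19, adjusted p = 0.136) became -0.81 (SE 0.11, adjusted p = 0.000677) on 7 arrays. Adamtsl5 followed the same pattern, at 8.11 to 8.30 in the Daxx arrays, with vector replicate 2 among them at 8.22 and the rest of the vector arrays at 8.62 to 8.73 (-0.49 on 7 arrays, adjusted p = 0.000189). Adamtsl4, which binds fibrillin, was lower by less (-0.21 on 8 arrays, adjusted p = 0.0827, and -0.25 on 7, adjusted p = 0.00451). Adamtsl1 and Adamtsl2 had changes of -0.05 and 0.04.

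Of the 4 TIMPs 2 fell, 1 rose and 1 did not pass. Timp3, which binds to the matrix and inhibits Adamts4 and Adamts5 as well as MMPs, read 11.67 and 11.66 in DaxxA and 11.76 and 11.77 in DaxxB, against 12.26, 12.17, 12.28 and 12.26 in the vector arrays. It was lower by 1.44-fold (-0.53, SE 0.053, adjusted p = 0.000786). Timp2, a secreted inhibitor that also helps Mmp14 activate the proenzyme of Mmp2, read 11.24 and 11.13 in DaxxA and 11.17 and 11.18 in DaxxB, against 11.52, 11.46, 11.57 and 11.55 in the vector arrays (-0.35, SE 0.051, 1.27-fold, adjusted p = 0.00593). Timp1, a secreted inhibitor that acts poorly on membrane-type MMPs, was higher. Its signals were 10.96 and 11.08 in DaxxA and 11.04 and 11.03 in DaxxB, against 10.40, 10.36, 10.64 and 10.56 in the vector arrays (0.53, SE 0.074, 1.45-fold, adjusted p = 0.00426). None of these groups overlapped, and the calls of all 3 were kept whichever array was left out. With the replicate number as a block in the fit, only vector replicates 1 and 2 set the change from vector. Timp1 was called there (adjusted p = 0.0271 in limma). Timp2 and Timp3 did not pass in that fit (adjusted p = 0.154 and 0.0683). In the reference order Timp2 overlaps Cep295nl, and Timp1, Timp3 and Timp4 overlap the synapsin genes Syn1, Syn3 and Syn2, and the sources used here do not say whether the probe sets keep these apart. Syn1 read 7.62 to 7.80 in the Daxx arrays and 7.35 to 7.37 in the vector arrays other than replicate 2, which read 7.78 (0.25, adjusted p = 0.271). Timp4 lay between 5.15 and 5.44 in the Daxx arrays, against 5.25 to 5.35 in 3 vector arrays and 5.92 in vector replicate 2, below the olfactory percentile in its mean, and did not pass (-0.13, SE 0.15, adjusted p = 0.716).

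The gelatinases differed from each other in their results. Mmp9, gelatinase B, read 9.14 and 9.09 in DaxxA and 9.24 and 9.23 in DaxxB, against 8.77, 8.23, 8.73 and 8.78 in the vector arrays. It was higher in all 4 Daxx arrays (0.55, SE 0.12, 1.46-fold, adjusted p = 0.0422), with vector replicate 2 about 0.5 below the other vector arrays. On 7 arrays the change was 0.42 (adjusted p = 0.000333), and the call was lost when any array other than that was left out (adjusted p up to 0.136). Mmp2, gelatinase A, read 9.15 and 9.05 in DaxxA and 9.29 and 9.09 in DaxxB, against 9.23, 8.78, 9.20 and 9.28 in the vector arrays. Its groups overlapped, and the difference was 0.02 with a 95% interval from -0.24 to 0.28.

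The stromelysins and matrilysin had 1 of 4 members lower. Mmp3, stromelysin 1, read 5.24 and 5.64 in DaxxA and 5.52 and 5.44 in DaxxB, against 5.89, 6.41, 6.002 and 5.95 in the vector arrays (-0.61, SE 0.13, 1.52-fold, adjusted p = 0.033). Its mean signal of 5.76 was not above the olfactory percentile, and its highest vector value was that of replicate 2, without which the change was -0.49 (adjusted p = 0.00285). That was the only fit of the 8 with an array left out in which the call was kept. Mmp11, stromelysin 3, read 8.92 and 8.83 in DaxxA and 8.94 and 8.85 in DaxxB, against 9.28, 8.93, 9.25 and 9.15 in the vector arrays. It did not pass on 8 arrays (-0.27, SE 0.083, adjusted p = 0.127) and was lower on 7 (-0.35, adjusted p = 0.00118). Mmp10 and Mmp7 were not called on 8 or on 7 arrays.

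The collagenases, membrane-type MMPs and other MMPs had 0 of 16 members called by limma on 8 arrays, and 1 of them, Mmp13, had an unadjusted p below 0.05. Mmp14, the membrane-type protease that activates Mmp2, read 9.42 and 9.35 in DaxxA and 9.50 and 9.48 in DaxxB, against 9.29, 9.03, 9.37 and 9.37 in the vector arrays (0.17, SE 0.084, 95% interval -0.02 to 0.37, adjusted p = 0.381). The collagenases Mmp1a, Mmp1b, Mmp8 and Mmp13 all had mean signals not above the olfactory percentile. Of them Mmp13 was lower on 7 arrays (-0.31, adjusted p = 0.00139), with 5.63 to 5.76 in the Daxx arrays, against 5.998 to 6.03 in the 3 vector arrays left and 5.72 in vector replicate 2. Mmp19 was lower on 7 arrays too (-0.30, adjusted p = 0.0101). The other 14 did not pass on 7 arrays, and their changes there lay between -0.12 and 0.10.

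**Figure D4:**
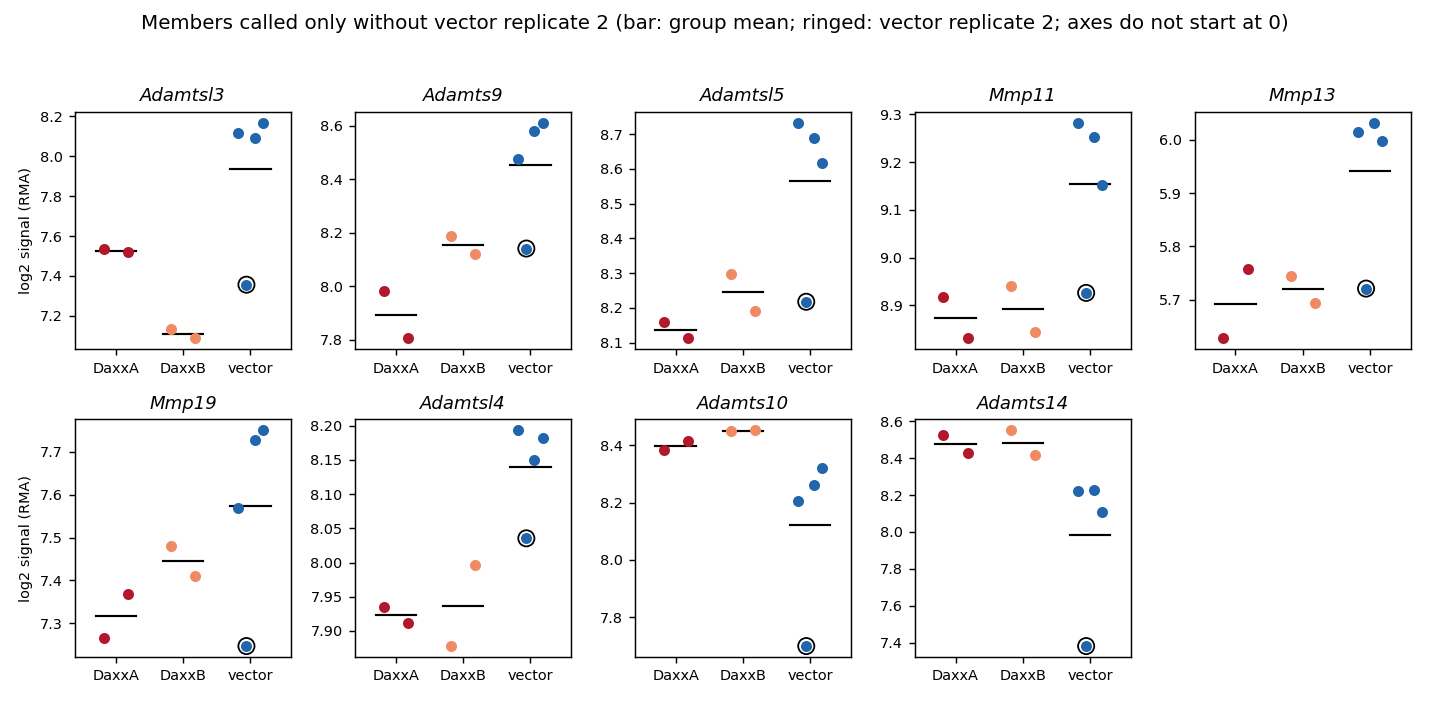
Log2 signal of each array (points) and the group mean (bars) for the 9 members called in Daxx minus vector only without vector replicate 2, in DaxxA, DaxxB and vector arrays, with vector replicate 2 ringed and axes that do not start at 0. The ringed array is the lowest vector value in all 9 panels, as for Adamtsl3 at 7.36 and Adamts14 at 7.38, where the other vector arrays lie above 8.

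The 10 MMP genes from Mmp13 to Mmp7 are consecutive protein-coding genes on chromosome 9 of GRCm38.p6. Of these, 1 (Mmp10) had a mean signal above the olfactory percentile, and Mmp3 was the 1 called on 8 arrays. All 10 had values below 0 on 8 arrays (-0.61 to -0.07), and vector replicate 2 was the highest vector array in 9 of them. On 7 arrays 7 were below 0 and 3 above (-0.49 to 0.10), and Mmp3 and Mmp13 were called lower. The 8 members whose promoters held an AP-1 match were all in this run of genes.

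The DaxxA and DaxxB arrays were then set against the same 4 vector arrays, in a fit with 3 groups. In each, the same 6 members were called, Adamts5, Adamts1, Adamts3, Timp3 and Timp2 lower and Timp1 higher, beside 1.97% of all genes for DaxxA (0.522% higher and 1.45% lower) and 2.69% for DaxxB (0.767% higher and 1.92% lower). Since the vector arrays are shared, this is no independent repeat. Leaving out 1 of a group's own 2 arrays lowered the count of members in DaxxA and in DaxxB, and lowered that of all genes too. Such fits leave 1 array in the group, so their counts are not given. Adamts5 changed by -1.24 in DaxxA and -1.28 in DaxxB, Adamts1 by -1.17 and -1.24, and Adamts3 by -0.79 and -0.72. Timp3 changed by -0.58 and -0.48, Timp2 by -0.34 and -0.35 and Timp1 by 0.53 and 0.54. On 8 arrays the difference DaxxA minus DaxxB was called for 0 of 49 members by limma, beside 0% of all genes. In that fit 0 of 49 had an unadjusted p below 0.05, beside 846 of all 19939 genes. Over the 10 called members that difference lay between -0.12 and 0.06. DaxxA and DaxxB values were apart for 28 of 49 members (57.1%), beside 53.8% of all genes. Adamtsl3 had the largest difference, DaxxA being 0.42 higher (95% interval on 8 arrays from -0.18 to 1.01). Without vector replicate 2 it was the 1 member called (SE 0.053, adjusted p = 0.0201 in limma, beside 2.15% of all genes). In that fit the unadjusted p was also below 0.05, with DaxxA lower, for Adamts18, Adamts15, Adamts9, Mmp10, Mmp12, Mmp17, Adamts7 and Mmp9. The share of all genes below 0.05 there was not taken, so this list cannot be set against all genes. On those 7 arrays 19 members were called in DaxxA minus vector (beside 11.3% of all genes) and 22 in DaxxB minus vector (beside 20.5%). Adamts10, Adamts15, Adamts18 and Adamts19 were then higher in DaxxB and did not pass in DaxxA. The mean signals of Adamts15, Adamts18 and Adamts19 were not above the olfactory percentile. Mmp10 was lower in DaxxA and did not pass in DaxxB. DaxxA minus DaxxB was not called for any of these 5 genes.

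Genes around these families were read from lists of activators, other inhibitors, substrates and transcription factors. The counts stand beside 4.52% of all genes called on 8 arrays (1.8% higher and 2.73% lower) and 12.8% on 7 (5.26% higher and 7.57% lower). Of 7 plasminogen activators and inhibitors 1 rose and 1 fell, and on 7 arrays 2 were higher and 2 lower. Plau, the urokinase that activates plasminogen, rose 1.41-fold (7.74 ± 0.14 in the Daxx arrays, against 7.25 ± 0.039 in the vector arrays, SD, n = 4 each, adjusted p = 0.00717 in limma). Serpinf1, a secreted serpin without inhibitor activity, fell 1.29-fold (adjusted p = 0.0111). Of 13 ADAM and astacin proteases Adam9 fell 1.21-fold and Adam23, a member without protease activity, rose 1.33-fold. Of 8 other inhibitors and clearance receptors, which include Reck and Lrp1, and of 5 convertases and inducers, 0 were called by limma on 8 arrays (0 of the 8 and 1 of the 5 had an unadjusted p below 0.05), and 1 in each list was lower on 7. Among 15 substrates and partners Fbn2, the microfibril protein fibrillin 2, fell 1.34-fold and Col1a2, a chain of type I collagen, rose 1.24-fold, while 13 did not pass, the proteoglycan gene Vcan among them, and on 7 arrays 3 were higher and 2 lower. Of 11 AP-1 and ETS factors, which act on many MMP promoters, 3 rose, 0 fell and 8 did not pass, and on 7 arrays 4 were higher and 1 lower. Jun rose 1.30-fold (10.29 ± 0.042 in the Daxx arrays, against 9.91 ± 0.12 in the vector arrays, SD, n = 4 each, adjusted p = 0.0175 in limma), Fosl1 1.28-fold (adjusted p = 0.0086) and Etv4 1.32-fold (adjusted p = 0.00738).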

How the data were processed

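Total RNA of 8 samples was hybridised to Affymetrix microarrays. The deposited values are log2 signals per probe set, made by the authors with Affymetrix Expression Console and RMA, per the submitters' processing notes, with versions, library file and build not given in the sources used here. RMA normalizes arrays against each other, so a signal is relative to the other arrays and an overall shift in RNA content is not seen. Of 35556 probe sets, 21789 had 1 gene symbol, 1621 several and 12146 none in the platform annotation. Each gene was represented by its brightest probe set (mean of the 8 arrays), which gave 19939 genes, of which 19856 matched the GRCm38.p6 gene table. Mmp15 and Adamts2 were not analysed here. The number of arrays limits the precision.

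Differences were fitted with limma 3.58.1 (R 4.3.3, lmFit and eBayes) over all genes with Benjamini-Hochberg adjustment and a threshold of 0.05, with DaxxA and DaxxB joined as Daxx, or as 3 groups. The procedure was tested on simulated data of independent arrays, none of them set apart as vector replicate 2 is. A change of 0.5 was recovered for 68% of the changed genes in Daxx minus vector. It was recovered for 32% in DaxxA minus vector, 39% in DaxxB minus vector and 28% in DaxxA minus DaxxB. False calls were 3.94% to 8.62% of the calls over these comparisons. Values in every array were given for the members called in a comparison with vector, for the 4 TIMPs and for the 6 members of highest mean, and listed genes of other families were named where called. Members called without vector replicate 2 only were chosen after their values were seen. The members and lists were chosen with earlier results of these data known. Labels do not say that samples came from separate cultures, so p-values measure the spread between these samples. Alternatives were each array left out, median centring, array weights, a trended robust fit, a filter at the olfactory percentile, a replicate block, every probe set and a fit of 3 groups. Leaving vector replicate 2 out of the pathway list counts was chosen after seeing the data.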

Additional observations from a re-analysis of the deposited data

Results flagged for a closer look

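Within the 4 Daxx and the 4 vector arrays of each of 49 members (98 sets), 17 sets held 1 array whose gap to the other 3, as a share of the range, was above Dixon's critical value. Chance gives about 1 in 20. Of these, 15 were vector replicate 2, high in 7 and low in 8. It was low in Adamts1 (9.23, the other vector arrays 9.60 to 9.66), Adamts5 (9.21, others 9.52 to 9.58), Adamts14 (7.38, others 8.11 to 8.23), Adamtsl2 (6.14, others 6.34 to 6.35), Adamtsl3 (7.36, others 8.09 to 8.17), Mmp2 (8.78, others 9.20 to 9.28), Mmp9 (8.23, others 8.73 to 8.78) and Mmp13 (5.72, others 5.998 to 6.03). It was high in Adamts15 (6.76, others 5.35 to 5.42), Mmp10 (7.54, others 6.98 to 7.06), Mmp1a (5.32, others 4.56 to 4.66), Mmp1b (4.77, others 4.45 to 4.48), Mmp7 (6.31, others 5.83 to 5.88), Mmp8 (5.07, others 4.53 to 4.61) and Timp4 (5.92, others 5.25 to 5.35). The Daxx sets gave Mmp20 in DaxxB replicate 1 (5.69, the other Daxx arrays 5.81 to 5.82) and Mmp27 in DaxxA replicate 1 (5.26, others 5.34 to 5.35). Adamtsl3 differed between DaxxA and DaxxB without vector replicate 2, by 0.42 (SE 0.053, adjusted p = 0.0201 in limma). In that fit 2.15% of all genes were called. The difference was the same on 8 arrays, where the SE was 0.25 and it was not called. DaxxA lay above DaxxB in both arrays of each, and 53.8% of all genes had DaxxA and DaxxB apart in either direction.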

How the results depend on the processing

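The count of 10 members in Daxx minus vector lay between 6 and 19 with 1 array left out. It was 6 without DaxxA replicate 1, DaxxB replicate 1, DaxxB replicate 2, vector replicate 1 or vector replicate 3. In those fits 446 to 504 of all 19939 genes were called. Without vector replicate 2 it was 19, beside 2558 of all genes. The 6 called in every such fit were Adamts1, Adamts3, Adamts5, Timp1, Timp2 and Timp3. Array weights gave 21 (beside 3232 of all genes), median centring 10 (beside 715) and a trended robust fit 10 (beside 1287). The filter at the olfactory percentile gave 10, beside 1334 of the genes kept. With that filter, which left 31 members, Mmp3 was not tested and Adamtsl4 was called. Every probe set gave 11, beside 984 of 21789 probe sets. The fit of 3 groups gave 8 (beside 807 of all genes), without Mmp3 (adjusted p = 0.059 in limma) and Mmp9 (adjusted p = 0.0658).

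In DaxxA minus vector the count of 6 lay between 4 and 19 when an array of another group was left out, and was 19 with array weights. The 19 came without vector replicate 2, beside 2246 of all genes. In DaxxB minus vector the count of 6 lay between 4 and 22 when an array of another group was left out, and was 22 with array weights. The 22 came without vector replicate 2, beside 4083 of all genes. In both comparisons, leaving out 1 of the Daxx group's own arrays gave fewer members, and fewer of all genes. Median centring gave 4 in each comparison, without Timp1 and Timp2, beside 284 of all 19939 genes in DaxxA and 417 in DaxxB. With array weights 2720 of all genes were called in DaxxA and 4252 in DaxxB. A lone array left in a group is assumed to vary like the other groups. DaxxA minus DaxxB had 0 to 1 members called over the arrays left out, and 1 with array weights, Adamtsl3.

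Arrays with the same number share only a number. Correlations of their deviations from the group means were 0.024 to 0.16. With the replicate block the count was 4 in Daxx minus vector, beside 162 of all 19939 genes. Numbers 3 and 4 occur in the vector group alone, so only vector replicates 1 and 2 set the change in that fit. Of these, vector replicate 2 stood apart. Adamts1, Adamts3, Adamts5 and Timp1 were kept, and Timp2 and Timp3 were among the members lost. In DaxxA minus vector and in DaxxB minus vector 0 members were called with the replicate block, beside 0 of all genes. Among the genes given array by array, Mmp2 changed sign without DaxxB replicate 1 (-0.024), without vector replicate 2 (-0.0913) and with array weights (-0.0818), and lay between -0.0913 and 0.0760 over the arrays left out. Timp4 changed sign without vector replicate 2 (0.0280) and with array weights (0.00675), and lay between -0.196 and 0.0280. The cause was not tested.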
